A study of Mus musculus with 3 samples.

Results

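The genes described here are 9 genes of interleukin-6, interleukin-10 and interleukin-4 signalling, out of 31053 gene identifiers counted in each library: the cytokines Il6 and Il10, the receptor chains Il4ra, Il10ra and Il10rb, the transcription factors Stat3 and Stat6, and the inhibitors Socs1 and Socs3. Each symbol matched 1 identifier. The cells were wound monocytes and macrophages, taken at day 3, day 6 and day 10 after skin injury from males of the inbred mouse strain C57BL6/J. Every day is 1 droplet single-cell RNA-seq library pooled from 2 mice, with no uninjured skin and no second genotype, so a difference between days cannot be set against the spread between animals. Within each library, cells were sorted into gates by 3 transcripts. Ly6c2 marks inflammatory monocytes, C1qa encodes a complement chain made by mature macrophages, and Cd209a encodes a lectin of monocyte-derived and dermal dendritic cells.

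Interleukin-6 binds its own receptor and the shared chain gp130, and interleukin-10 binds the chains encoded by Il10ra and Il10rb; both routes pass through Janus kinases to STAT3. The Il4ra chain pairs with the common gamma chain or with the interleukin-13 receptor and passes interleukin-4 and interleukin-13 signals to STAT6. SOCS3 binds gp130 and dampens the interleukin-6 route while leaving the interleukin-10 receptor largely alone, and SOCS1 restrains interferon and interleukin-4 signalling. In wound macrophages this network is known for the balance between inflammatory cells and cells that help repair.

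Il6 and Socs3 both had their highest summed level at day 3, and 6 of the 9 genes had a start-site sequence in the RefSeq promoter table (GRCm38.p6). The 250 bases before the start of Il6, chr5:30012864-30013113 on the plus strand, are shown because they hold known inducible elements, with every match in capitals:
Il6: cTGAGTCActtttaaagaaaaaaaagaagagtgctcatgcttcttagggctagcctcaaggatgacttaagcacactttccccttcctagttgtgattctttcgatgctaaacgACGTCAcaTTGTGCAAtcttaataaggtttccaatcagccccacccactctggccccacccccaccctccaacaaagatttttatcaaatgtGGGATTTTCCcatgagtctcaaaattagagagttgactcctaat
Counting back from the start, the capitals mark an AP-1 match (TGANTCA) from base 249, the complement of a cyclic AMP element core (TGACGT) from base 136, a C/EBP form (TTNNGCAA) from base 128 and a kappaB form (matched as GGGATTTTCC) from base 44. For Socs3, 29 bases around its match to the STAT palindrome TTCNNNGAA, which begins 154 bases before the RefSeq start, are shown because SOCS3 is a textbook STAT3 target, chr11:117969502-117969530 on the minus strand:
Socs3: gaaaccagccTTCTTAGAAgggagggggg
Searched on both strands of the 250 bases before the start, these letters were found in 6.73% (AP-1), 6.50% (cyclic AMP core), 9.57% (C/EBP), 1.40% (kappaB) and 7.04% (STAT palindrome) of 32536 promoters. The Il6 window had a GC content of 42.8% and 3 CpG pairs and the Socs3 window 71.6% and 26, against medians of 52.4% and 6 over all promoters. A wider-spaced form of the STAT palindrome, TTCCNGGAA and TATAAA were also searched and not found in these windows, and the windows of Il4ra, Socs1, Stat3 and Stat6 held none of the motifs. A match is a description of letters only.

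All 9 are protein-coding genes on the autosomes, in GRCm38 coordinates of GENCODE vM21. Il6 lies at chr5:30013114-30019981 and Il10 at chr1:131019845-131024974. Il4ra lies at chr7:125552120-125579474, Il10ra at chr9:45253837-45269149 and Il10rb at chr16:91406164-91425834. Stat3 and Socs3 share chromosome 11, at 100885098-100939540 and 117966079-117970047. The RefSeq start used for the Socs3 window lies inside this GENCODE interval, which begins farther upstream, so the Socs3 sequence shown above lies within it. The Il4ra window, chr7:125552021-125552270, likewise runs past the GENCODE start of Il4ra. Stat6 lies at chr10:127642986-127660957 and Socs1 at chr16:10782240-10785536. The chemistry counts transcript ends, so a level is the gene's unique molecular identifiers (UMIs) in each 1000000 UMIs of the summed cells (CPM), with no splice forms.

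The libraries of day 3, day 6 and day 10 held 1472, 1196 and 2209 barcodes and 11199361, 9273960 and 13972817 UMIs. A filter of 200 or more genes and less than 10% mitochondrial UMIs left 900, 598 and 1362 cells. A cell entered a gate with at least 2 UMIs of its gene: 132, 112 and 174 cells were Cd209a+, 70, 273 and 655 were C1qa+ only, 69, 11 and 4 were Ly6c2+C1qa+, and 347, 22 and 79 were Ly6c2+ only. The none gate, with under 2 UMIs of each of the 3 genes, held 282, 180 and 450 cells. At a gate threshold of 1 UMI it held 200, 133 and 344 cells. The share of each gate changes between days, so within-gate values are given beside the sum of all kept cells; in such sums, fewer cells of a type and less RNA per cell cannot be told apart. All 16 monocyte and macrophage markers were detected each day. The 10 dendritic markers, which include Cd209a, summed to 1558, 1226 and 1566 CPM in the Cd209a+ gate at days 3, 6 and 10, of which the gating gene Cd209a itself made 1438, 963 and 1422 CPM, to 4.77 to 30.6 CPM in the C1qa+ gate and to 7.69 to 17.7 CPM in the Ly6c2+ gate. The 22 Ly6c2+ cells of day 6 stood apart in neutrophil markers, with 2761 CPM over 9 genes (7 detected, Ly6g and Ngp at 0) against 231 CPM at day 3 and 170 CPM at day 10 in that gate. Day 6 and day 10 shared 2 barcodes, and leaving them out moved no member's CPM by more than 1.09%.

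Il6, the inflammatory cytokine of the set, was lowest at day 10 in the sum of all kept cells. It had 36.1 CPM (352 UMIs, 95% counting interval 32.4 to 40.0) at day 3, 13.5 CPM (98 UMIs, 11.0 to 16.4) at day 6 and 4.37 CPM (53 UMIs, 3.28 to 5.72) at day 10. The day 10 level was 8.25-fold lower than that of day 3 (6.16 to 11.2), and the 3 intervals do not overlap. Intervals here cover counting error only.

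Inside the gates, Il6 was lowest in Cd209a+ cells on each day, though at day 10 the order against Ly6c2+ cells rests on 2 UMIs in each. Cd209a+ cells had 3.63, 2.04 and 0.816 CPM at days 3, 6 and 10, from 8, 4 and 2 UMIs. C1qa+ cells had 78.0, 10.2 and 4.71 CPM, but 46 of their 49 UMIs at day 3 (93.9%) came from 1 cell. Ly6c2+ cells had 41.9, 108 and 2.36 CPM from 158, 28 and 2 UMIs, so their highest value rests on 22 cells. Over the 3 libraries, Il6 was lower in Cd209a+ than in C1qa+ cells by a log2 fold change of -3.22 ± 0.81 (SE, edgeR quasi-likelihood adjusted p = 0.00639) and lower than in Ly6c2+ cells by -3.98 ± 0.84 (adjusted p = 0.00389), in 3 of 3 libraries each. The edgeR call against C1qa+ cells was lost without day 3 (adjusted p = 0.0746) and with no library block (0.11), and that against Ly6c2+ cells with no library block (0.0569). Between C1qa+ and Ly6c2+ cells the difference was -0.76 ± 0.63 (adjusted p = 0.477; interval -2.11 to 0.59), with 2 libraries higher and 1 lower in C1qa+ cells.

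In Ly6c2+ cells alone, Il6 at day 10 was 17.8-fold lower than at day 3 (2 against 158 UMIs, interval 4.83 to 148). In C1qa+ cells the same comparison gave 16.5-fold lower, and 1.68-fold lower once the highest cell of each library was left out. The latter ratio is given without an interval and rests on 3 UMIs in 1 cell at day 3. Cells in the none gate had 46.9, 16.7 and 7.05 CPM, the same order as the sum of all cells. The 69 Ly6c2+C1qa+ cells of day 3 had 33.2 CPM, with 20 of 26 UMIs in 1 cell.

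Il10, the cytokine that restrains macrophage activation, had its highest level at day 6. It stood at 14.2 CPM (139 UMIs, interval 11.98 to 16.8) at day 3, 50.4 CPM (366 UMIs, 45.4 to 55.8) at day 6 and 15.3 CPM (185 UMIs, 13.1 to 17.6) at day 10. Day 6 was 3.54-fold higher than day 3 (2.90 to 4.33), day 10 was 3.30-fold lower than day 6 (2.76 to 3.96), and the intervals of day 10 and day 3 overlap.

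Cd209a+ cells carried almost no Il10, with 1, 4 and 1 UMIs at days 3, 6 and 10 (0.453, 2.04 and 0.408 CPM). C1qa+ cells had 12.7, 61.8 and 23.0 CPM, and their day 10 level was 1.81 times that of day 3 with an interval that includes no difference (0.890 to 4.28). Ly6c2+ cells had 13.3, 154 and 3.54 CPM, where 34 of the 40 UMIs at day 6 came from 1 cell and day 10 had 3 UMIs. The none gate had 17.7, 66.9 and 16.6 CPM. Day 6 was thus the highest day in every gate with at least 20 cells in all 3 libraries. In Cd209a+ cells that order rests on 4 UMIs at day 6, and in Ly6c2+ cells mostly on 1 cell. Without the highest cell of each library, day 6 was 6.23-fold higher than day 3 in C1qa+ cells. In Ly6c2+ cells it was 2.19-fold higher, where the value with that cell was 11.6-fold. These ratios are given without an interval and rest on few UMIs. The Ly6c2+ cells left at day 6 held 5 and 1 UMIs, and the C1qa+ cells left at day 3 at most 2 each. Neutrophil markers were also highest in the Ly6c2+ cells of day 6, as given above, and their part in the Il6 and Il10 values was not tested.

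Across libraries, Il10 fell by 5.06 on the log2 scale in Cd209a+ against C1qa+ cells (SE 0.66, edgeR adjusted p = 4.07e-05) and differed by -5.23 ± 0.71 from Ly6c2+ cells (adjusted p = 0.000134), in 3 of 3 libraries. These were the largest differences of any of the 9 genes, and the edgeR or DESeq2 calls held in 14 of 14 and 13 of 13 alternative settings. C1qa+ and Ly6c2+ cells did not pass the test (-0.17 ± 0.43, adjusted p = 0.854; interval -1.10 to 0.76). The Ly6c2+C1qa+ cells of day 3 had 48.5 CPM of Il10, with 20 of 38 UMIs in 1 cell, against 13.3 CPM in Ly6c2+ cells of that day.

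Both cytokine transcripts sat in few cells. Il6 was seen in 97, 23 and 21 cells at days 3, 6 and 10 and Il10 in 50, 55 and 51 cells. Cells with both numbered 6, 6 and 1. The 7, 3 and 1 cells with at least 10 Il6 UMIs held 155, 38 and 10 of them. For Il10, 2, 11 and 6 such cells held 37, 235 and 107 UMIs, so the day 6 excess of Il10 lay largely in 11 cells. After thinning each cell to 2000 UMIs, which left out 21, 47 and 90 shallower cells, the share of cells with an Il6 UMI was 4.89%, 2.36% and 0.708% at days 3, 6 and 10. The Il10 share was 1.71%, 4.36% and 1.65%. Unthinned, the shares were 10.8%, 3.85% and 1.54% for Il6 and 5.56%, 9.20% and 3.74% for Il10, at median depths of 10629, 11778.5 and 8285 UMIs. No cell type known to lack these genes was gated. In Cd209a+ cells the thinned Il6 share was 1.52%, 0% and 0%, and the thinned Il10 shares were 0 of 132, 0 of 112 and 0 of 174 cells (exact 95% upper bounds 2.76%, 3.24% and 2.10%).

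**Figure D1:**
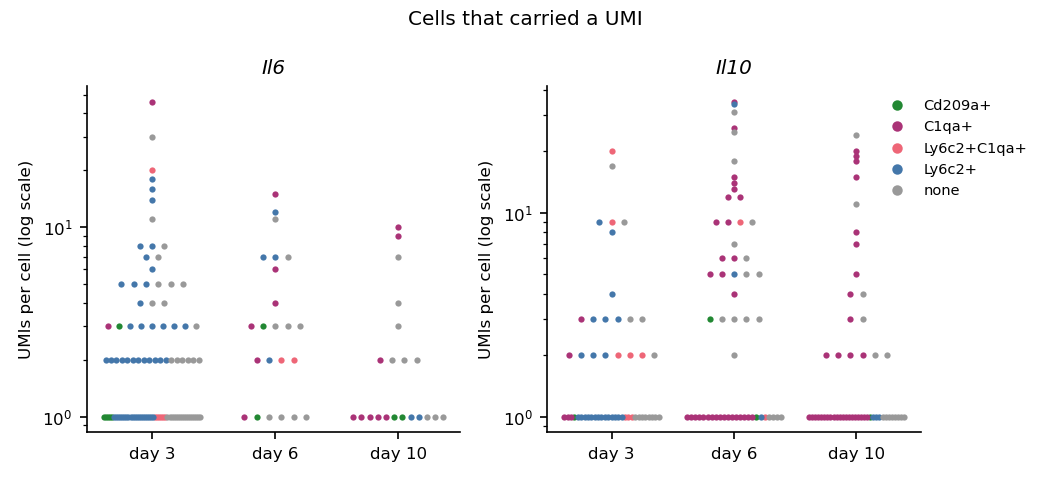
UMIs of Il6 (left) and Il10 (right) in each kept cell that carried at least 1, by day, on a log scale, with points coloured by gate. The Il6 cells with at least 10 UMIs number 7, 3 and 1 at days 3, 6 and 10, and the Il10 ones 2, 11 and 6.

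**Figure D2:**
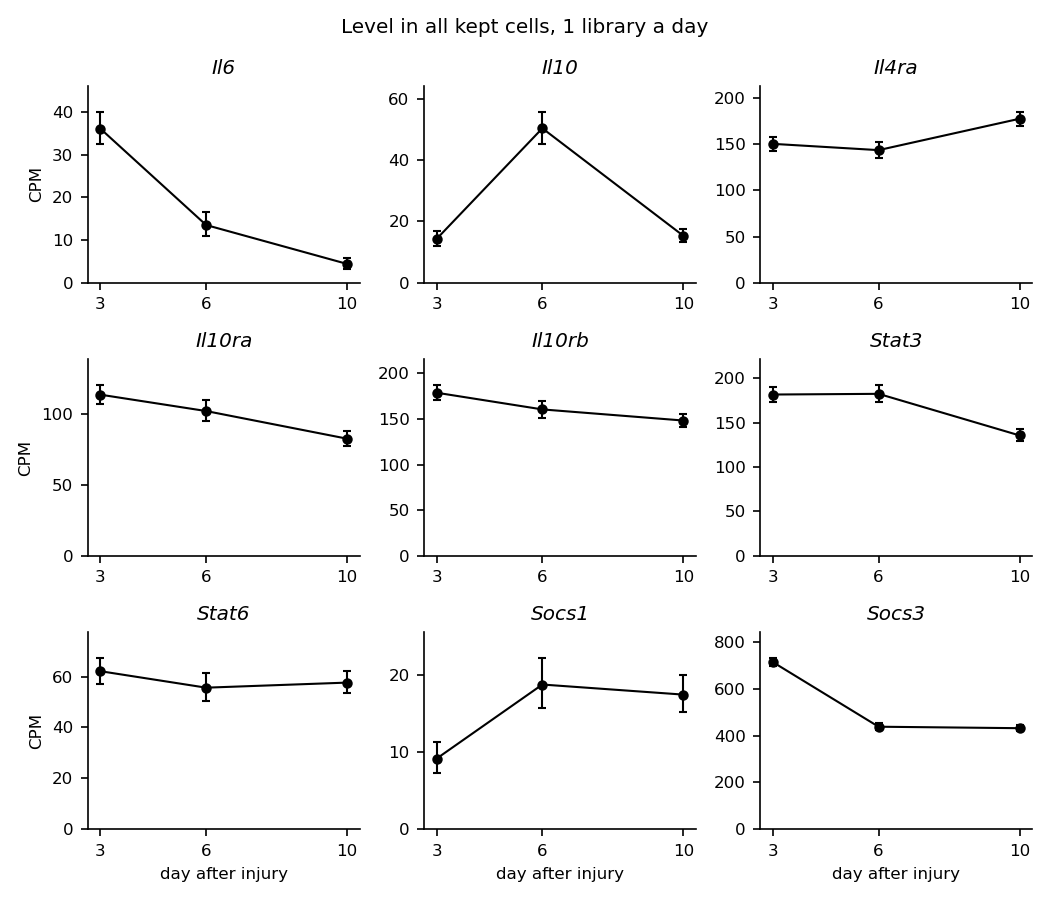
Level in all kept cells, in CPM (vertical axis, from 0), against the day after injury for each of the 9 genes, with 1 library a day and bars for the 95% Poisson interval. Il6 steps down over the 3 days, Il10 peaks at day 6 and Socs3 stands at 715 CPM at day 3 against 438 and 432 CPM later.

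Among the receptor chains, Il4ra, the signalling chain for interleukin-4 and interleukin-13, took opposite day patterns in the gates. In all kept cells it had 151, 144 and 178 CPM at days 3, 6 and 10, and day 10 was 1.18-fold higher than day 3 (1.10 to 1.26). C1qa+ cells had 156, 165 and 252 CPM. Their day 10 level was 1.61-fold above day 3 (1.31 to 2.0) and 1.52-fold above day 6 (1.37 to 1.69). Cd209a+ cells had 137, 125 and 90.2 CPM and Ly6c2+ cells 152, 119 and 100.3 CPM, and in both gates day 10 was 1.52-fold lower than day 3 (1.28 to 1.82 and 1.21 to 1.93). The C1qa+ value at day 10 was not carried by few cells: 464 of 655 cells had a UMI and the highest cell held 1.37% of the UMIs, and the median cell had 1.87 UMIs per 10000 at day 10 against 1.17 at day 3. At day 3 the 3 gates lay within 137 to 156 CPM with overlapping intervals, and at day 10 the C1qa+ interval (239 to 265) lay above those of Cd209a+ (78.7 to 103) and Ly6c2+ cells (80.1 to 124). Over the 3 libraries Il4ra was lower in Cd209a+ than in C1qa+ cells (-0.61 ± 0.21, edgeR adjusted p = 0.0385), a call that held in 8 of 14 alternative settings. It was lost without day 10 (-0.18, edgeR adjusted p = 0.545), without day 6 (0.0705), with DESeq2 (0.075), with no library block (0.11), with only the gates compared (0.113) and at a gate threshold of 1 UMI (0.0537). Against Ly6c2+ cells the C1qa+ level differed by 0.51 ± 0.23 (adjusted p = 0.162), higher in 3 of 3 libraries.

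Il10ra, the ligand-binding chain of the interleukin-10 receptor, had 113, 102 and 82.3 CPM at days 3, 6 and 10 in all kept cells, and the ratio of day 10 to day 3 was 0.727 (0.666 to 0.792). Cd209a+ cells had 88.0, 119 and 91.4 CPM, with the highest value at day 6. C1qa+ cells had 143, 101 and 80.5 CPM, so day 10 was 1.78-fold lower than day 3 (1.40 to 2.24), and Ly6c2+ cells had 115, 111 and 89.7 CPM, with overlapping intervals. No edgeR contrast of Il10ra between these gates passed: the differences lay between -0.14 and 0.07 on the log2 scale, with adjusted p from 0.729 to 0.883. The widest of their intervals ran from -0.57 to 0.30.

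Il10rb, the second chain of that receptor, which also serves interleukin-22 and type III interferons, was lower in Cd209a+ cells than in the other gates on every day. Cd209a+ cells had 85.7, 66.2 and 67.3 CPM at days 3, 6 and 10. C1qa+ cells had 250, 219 and 195 CPM and Ly6c2+ cells 193, 150 and 109 CPM, so every Cd209a+ value lay below every value of the other gates. The Cd209a+ level was lower than in C1qa+ cells by -1.48 ± 0.14 on the log2 scale (edgeR adjusted p = 3.6e-06) and than in Ly6c2+ cells by -1.03 ± 0.15 (adjusted p = 0.000254). These calls held in 14 of 14 alternative settings each. C1qa+ cells exceeded Ly6c2+ cells in 3 of 3 libraries, by 0.44 ± 0.15 (adjusted p = 0.0622), which passed with DESeq2 (adjusted p = 0.0238). Day 10 was lower than day 3 within each gate, by 1.27-fold in Cd209a+ (1.03 to 1.58), 1.28-fold in C1qa+ (1.07 to 1.51) and 1.78-fold in Ly6c2+ cells (1.43 to 2.23).

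**Figure D3:**
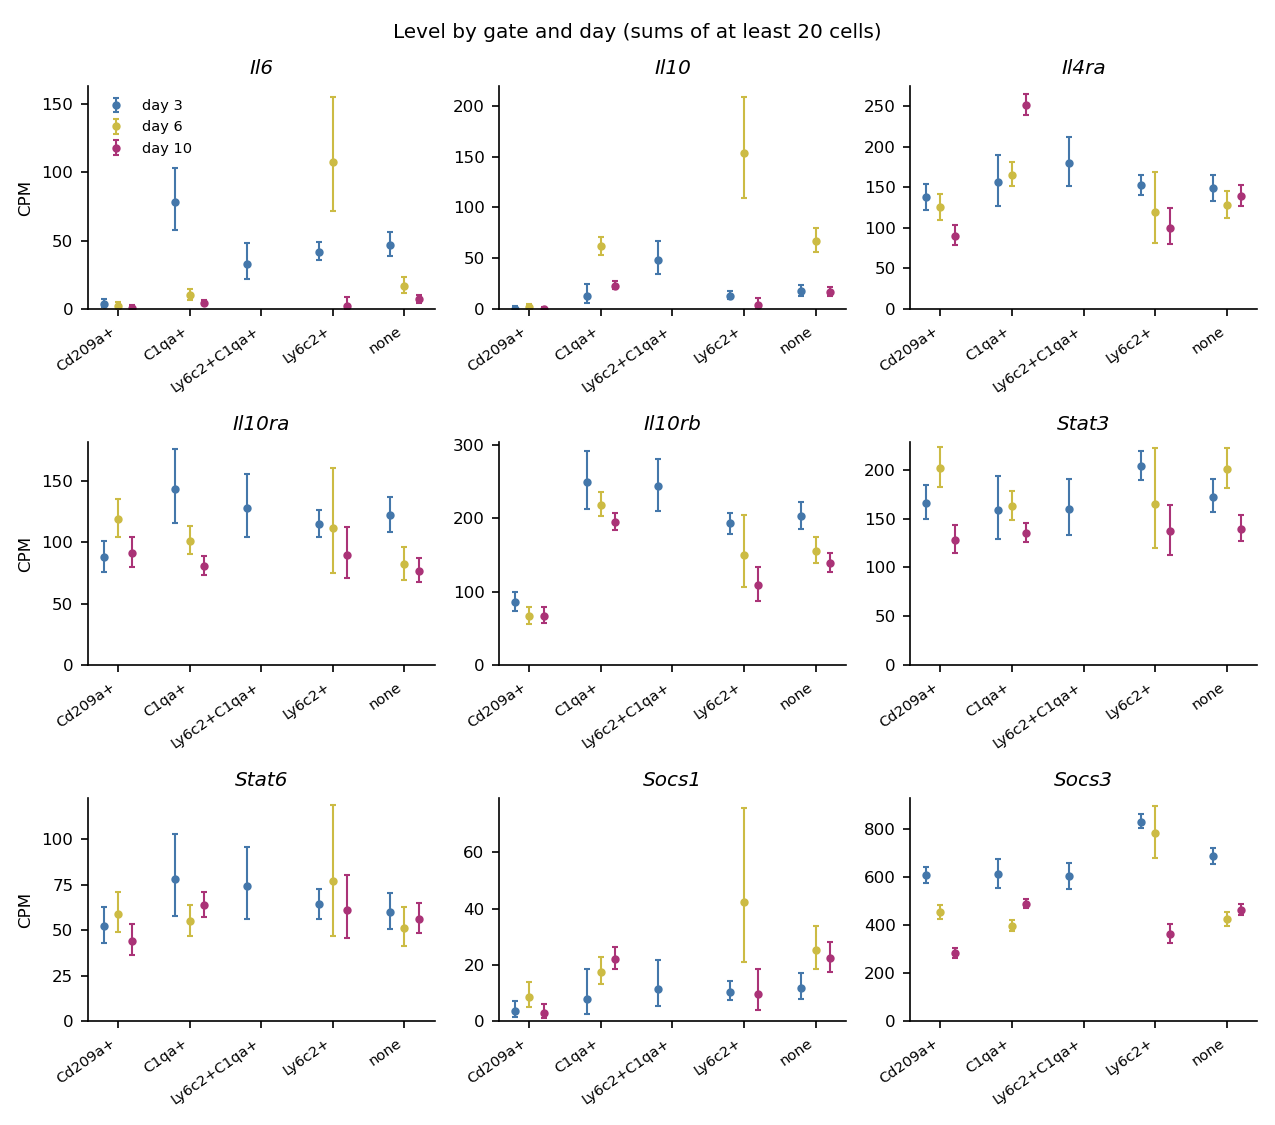
Level of each gene in CPM (vertical axis, from 0) by gate (horizontal axis) and day (colour), with bars for the 95% Poisson interval; sums of under 20 cells are left out, so Ly6c2+C1qa+ has day 3 only. Il6, Il10, Il10rb and Socs1 are lowest in Cd209a+ cells on each day, with very few Il6 UMIs in Cd209a+ and Ly6c2+ cells at day 10. Il4ra reaches 252 CPM in the C1qa+ cells of day 10.

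No contrast between the gates passed for either STAT gene. Stat3, which carries both the interleukin-6 and the interleukin-10 signal, had 181, 182 and 135 CPM at days 3, 6 and 10, and day 10 was 1.34-fold lower than day 3 (1.25 to 1.43). Cd209a+ cells had 166, 202 and 128 CPM, C1qa+ cells 159, 163 and 136 CPM and Ly6c2+ cells 204, 165 and 137 CPM. Day 10 was thus the lowest day in each of these gates, by 1.30-fold, 1.17-fold and 1.49-fold against day 3, and the interval in C1qa+ cells (0.943 to 1.45) includes no difference. Stat6, which carries the interleukin-4 signal, had 62.1, 55.6 and 57.6 CPM with overlapping intervals. It had 52.2, 59.1 and 44.1 CPM in Cd209a+ cells, 78.0, 54.9 and 64.0 CPM in C1qa+ cells and 64.2, 76.8 and 61.3 CPM in Ly6c2+ cells. The log2 differences of Cd209a+ from C1qa+ cells were 0.23 ± 0.15 for Stat3 (edgeR adjusted p = 0.256) and -0.19 ± 0.17 for Stat6 (adjusted p = 0.43).

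Socs3, the inhibitor of gp130 signalling, was the member with the largest day 3 excess after Il6. It had 715 CPM (6972 UMIs, 698 to 731) at day 3, 438 CPM (423 to 453) at day 6 and 432 CPM (420 to 443) at day 10, so day 10 was 1.66-fold lower than day 3 (1.60 to 1.72) and the last 2 days overlap. Cd209a+ cells had 609, 454 and 282 CPM, C1qa+ cells 613, 398 and 490 CPM and Ly6c2+ cells 832, 783 and 363 CPM. The size of the day difference was unequal: day 10 was 2.16-fold lower than day 3 in Cd209a+ cells (1.97 to 2.37), 1.25-fold lower in C1qa+ cells (1.12 to 1.39) and 2.29-fold lower in Ly6c2+ cells (2.04 to 2.58). In Ly6c2+ cells day 6 stood with day 3, and in C1qa+ cells day 6 was the lowest day. Between gates Socs3 did not pass the edgeR test, at -0.47 ± 0.22 for C1qa+ against Ly6c2+ cells (adjusted p = 0.18), -0.56 ± 0.22 for Cd209a+ against Ly6c2+ cells (adjusted p = 0.0921) and -0.09 ± 0.21 for Cd209a+ against C1qa+ cells (adjusted p = 0.785). Without day 10 the first of these passed (-0.83, edgeR adjusted p = 0.0334), as did the second (-0.61, adjusted p = 0.045). Il6 was highest at day 3 in all kept cells, C1qa+ and Cd209a+ cells. In Ly6c2+ cells, where day 6 is a sum of 22 cells, it was highest at day 6. At day 3, 93.9% of the Il6 UMIs of C1qa+ cells came from the highest cell. Immediate early genes, which also respond to tissue digestion, were highest at day 3 in all kept cells and each of these gates, like Socs3. A list of 10 such genes, added after the data were seen, summed to 11736.5, 9064 and 9710 CPM in all kept cells at days 3, 6 and 10, to 5861 to 6517 CPM in Cd209a+ cells, to 12659, 9938 and 11361 CPM in C1qa+ cells and to 12987, 8615 and 4884 CPM in Ly6c2+ cells. All 10 were detected each day, and their part in these results was not tested.

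Socs1, the inhibitor of interferon and interleukin-4 signalling, went the other way from Socs3 in all kept cells. It had 9.12 CPM (89 UMIs, 7.32 to 11.2) at day 3, 18.7 CPM (136 UMIs, 15.7 to 22.1) at day 6 and 17.4 CPM (211 UMIs, 15.1 to 19.9) at day 10, and day 10 was 1.91-fold higher than day 3 (1.48 to 2.47). Cd209a+ cells had 3.63, 8.66 and 2.86 CPM, C1qa+ cells 7.96, 17.4 and 22.1 CPM and Ly6c2+ cells 10.3, 42.2 and 9.44 CPM, the last from 39, 11 and 8 UMIs. C1qa+ cells of day 10 were 2.78-fold above those of day 3 (1.16 to 8.71), an interval set by 5 UMIs at day 3. In Cd209a+ and Ly6c2+ cells Socs1 was not higher at day 10 than at day 3. Across libraries Socs1 was lower in Cd209a+ cells than in C1qa+ cells (-1.64 ± 0.40, edgeR adjusted p = 0.00505) and than in Ly6c2+ cells (-1.77 ± 0.45, adjusted p = 0.0133), in 3 of 3 libraries each. The call against C1qa+ cells was lost without day 10 (-0.86, adjusted p = 0.166), and that against Ly6c2+ cells without day 3 (-1.82, adjusted p = 0.126), at a gate threshold of 5 UMIs (-1.27, 0.138) and with no library block (0.0967).

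Counted together, 1 of the 9 genes (Socs1) was at least 1.5-fold higher and 2 (Il6 and Socs3) at least 1.5-fold lower at day 10 than at day 3 in all kept cells, where 24.6% of 11289 genes were higher and 8.94% lower by that fold. The median of all genes lay at 0.17 on the log2 scale in this comparison, and that of the 9 genes at -0.27. After TMM or median-of-ratios scaling, which shift every value by -0.17 or -0.18, Il10ra and Stat3 also passed the fold downwards (5 genes). Day 6 against day 3 gave 2 higher (Il10 and Socs1; background 28.6%) and 2 lower (Il6 and Socs3; background 7.79%), and day 10 against day 6 gave 0 higher (5.87%) and 2 lower (Il6 and Il10; 10.3%). In C1qa+ cells 3 of 9 were higher at day 10 than at day 3 (Il10, Il4ra and Socs1; background 19.2%) and 2 lower (Il6 and Il10ra; 14.7%). Of these, the Il10 interval includes no difference, and most Il6 UMIs of day 3 came from 1 cell. In Ly6c2+ cells 0 of 9 were higher (14.5%) and 5 lower (Il6, Il10, Il4ra, Il10rb and Socs3; 19.0%). Of the 6 genes with at least 20 UMIs over both days in Cd209a+ cells, 0 were higher (12.4%) and 2 lower (Il4ra and Socs3; 10.3%).

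Between gates, all 9 genes entered the edgeR fit of 13 gate sums with the library as a block. In Cd209a+ against C1qa+ cells 0 were higher and 5 lower (Il6, Il10, Il4ra, Il10rb and Socs1), where 16.9% of 10643 genes were higher and 19.5% lower. With no library block 3 were called, and 3 without day 10. In Cd209a+ against Ly6c2+ cells 0 were higher (background 8.01%) and 4 lower (Il6, Il10, Il10rb and Socs1; background 11.1%), and 2 with no block (Il10 and Il10rb). In C1qa+ against Ly6c2+ cells edgeR called 0 higher (6.02%) and 0 lower (7.20%); 2 genes, Il4ra and Il10rb, had an unadjusted p under 0.05, and DESeq2 called 1. In Ly6c2+C1qa+ against Ly6c2+ cells, where the double-positive cells are 1 sum from day 3, assumed to vary like the other gates, edgeR and DESeq2 called 0 of 9 (background 0.0470% higher and 0.00% lower), and Il10 alone had an unadjusted p under 0.05 (1.57 ± 0.62, edgeR adjusted p = 0.661).

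**Figure D4:**
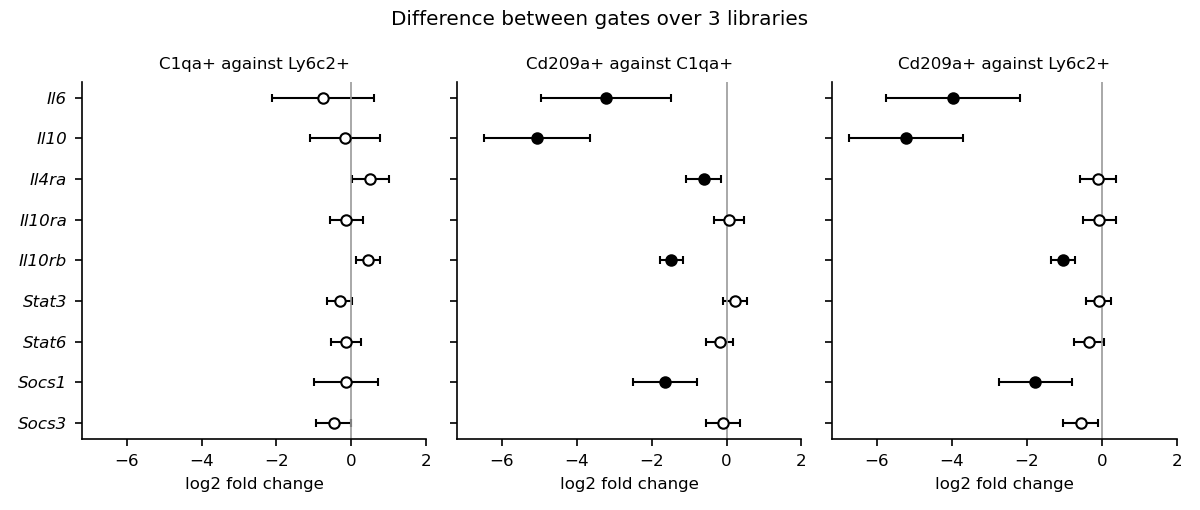
Log2 fold change between gates for each gene from the edgeR fit over 3 libraries, with bars for its 95% interval; filled points have an adjusted p under 0.05. In both Cd209a+ contrasts Il10 lies farthest below 0, at -5.06 against C1qa+ and -5.23 against Ly6c2+ cells, and the C1qa+ against Ly6c2+ panel has no filled point.

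Other members of the pathway were read from lists that hold none of the 9 genes, and their day counts in all kept cells stand against the same backgrounds of 24.6% higher and 8.94% lower and the median of all genes of 0.17. Counts between gates stand against 6.02% higher and 7.20% lower for C1qa+ against Ly6c2+ cells and 16.9% higher and 19.5% lower for Cd209a+ against C1qa+ cells. Of 15 further ligands of the interleukin-6, interleukin-10 and interleukin-4 families, 7 had at least 20 UMIs over days 3 and 10, of which 0 were higher and 4 lower at day 10 (median log2 ratio -0.68). Osm, which encodes oncostatin M, another ligand that signals through gp130, had 195 CPM at day 10 against 476 CPM at day 3 (2.44-fold lower, 2.32 to 2.56). Il12a had 1 UMI at day 10 against 19 at day 3, and Il27 had 16 against 32. Clcf1 (1.45-fold) and Ebi3 (1.14-fold), which encodes a chain of interleukin-27, had the highest ratios. Transcripts of the Il4ra ligands were nearly absent: Il4 had 0 UMIs at day 10 and 3 at day 3, and Il13 had 0 and 1. The ligand gene Osm fell in Cd209a+ against C1qa+ cells (-1.08, edgeR adjusted p = 0.00383), as did Lif (-2.61, adjusted p = 0.00454), while Ebi3 rose (0.74, adjusted p = 0.0161). In C1qa+ against Ly6c2+ cells 0 of 7 passed, with Il12a (0.29, edgeR adjusted p = 0.931) and Clcf1 (0.03, 0.979) highest and Il23a (-0.75, 0.565) and Lif (-0.68, 0.426) lowest.

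Of 13 other receptor chains, 8 were measured, 2 were higher and 0 lower at day 10 than at day 3 (median 0.13). Il11ra1 was 1.80-fold higher (1.43 to 2.28) and Il27ra 1.51-fold (0.797 to 2.97), while Il2rg, the common gamma chain that pairs with Il4ra, had the lowest ratio at 0.821 (0.745 to 0.904), followed by Lifr at 0.851. In Cd209a+ against C1qa+ cells 5 of 8 rose and 1 fell, the opposite direction to Il10rb and Il4ra. Il2rg rose by 1.0 (edgeR adjusted p = 0.000163) and Il6st, which encodes gp130, by 0.86 (adjusted p = 0.00752), whereas Il11ra1 fell by 1.68 (adjusted p = 0.000375). In C1qa+ against Ly6c2+ cells 0 of 8 passed, with Il21r (0.93, adjusted p = 0.0623) and Il11ra1 (0.91, 0.0752) highest and Il27ra (-0.99, 0.638) and Il13ra1 (-0.49, 0.231) lowest.

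Of the 4 Janus kinases 0 passed the fold between day 10 and day 3 (median -0.08). Jak2 had a ratio of 0.671 (0.599 to 0.753) and Tyk2, which serves the interleukin-10 receptor, 0.871, while Jak1 stood at 1.17 and Jak3 at 1.03. In Cd209a+ against C1qa+ cells Jak2 rose by 1.67 (edgeR adjusted p = 8.6e-05) and Tyk2 by 1.18 (adjusted p = 0.00112). In C1qa+ against Ly6c2+ cells 0 of the 4 passed, with Jak2 (-0.66, edgeR adjusted p = 0.127) and Tyk2 (-0.52, 0.235) lowest, then Jak1 (-0.14, 0.613) and Jak3 (-0.0012, adjusted p = 1).

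Among other STAT genes, Stat2, which carries type I interferon signals, was 3.75-fold lower at day 10 than at day 3 (3.27 to 4.30), and Stat4 was 1.63-fold lower (1.30 to 2.06). Stat5a (0.875) and Stat5b (0.945) did not pass the fold. Stat2 also fell in C1qa+ against Ly6c2+ cells (-0.93, edgeR adjusted p = 0.0371), while Stat4 (-0.34, 0.735), Stat5a (-0.33, 0.424) and Stat5b (-0.58, 0.121) did not pass. In Cd209a+ against C1qa+ cells Stat4 rose by 2.31 (edgeR adjusted p = 0.00026) and Stat5a by 1.47 (adjusted p = 5.09e-05).

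All 14 other inhibitors were measured, with 0 higher and 3 lower at day 10 than at day 3 (median 0.11). Cish, a SOCS family gene that follows STAT5, was 3.90-fold lower (3.01 to 5.10) and Ptpn1, a tyrosine phosphatase, 1.71-fold lower (1.62 to 1.81), while Pias3 (1.29-fold) and Ptpn11 (1.25-fold) had the highest ratios. Ptpn1 was the 1 inhibitor called in C1qa+ against Ly6c2+ cells (-1.42, edgeR adjusted p = 0.000358). Cish (-1.19, adjusted p = 0.13), Pias1 (0.41, 0.257) and Socs4 (0.35, 0.445) did not pass there.

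Of 16 genes known in macrophages to follow STAT3, 2 were higher and 7 lower at day 10 than at day 3 in all kept cells (median -0.55), and 0 were higher and 10 lower in Ly6c2+ cells (median -0.89, against -0.02 for all genes, of which 14.5% were higher and 19.0% lower there). In C1qa+ cells 4 of 16 were higher and 8 lower (backgrounds 19.2% and 14.7%), and in Cd209a+ cells 0 of 15 and 6 (12.4% and 10.3%). The none gate had 2 of 16 higher and 7 lower (median -0.44, against 0.10 for all genes). Junb stands in this list and among the immediate early genes. Over all kept cells Saa3, an acute-phase gene, was 3.46-fold higher (3.19 to 3.76) and Ddit4 1.66-fold higher. Nfil3, a repressor that follows interleukin-10, was 2.58-fold lower there (2.42 to 2.76) and Zfp36, which encodes an mRNA-decay factor, 1.93-fold lower. In C1qa+ against Ly6c2+ cells 2 rose and 3 fell: Tnip3 rose by 1.59 (edgeR adjusted p = 0.00152) and Il1rn, the interleukin-1 receptor antagonist, by 0.70 (0.0251), Cebpd fell by 1.47 (0.00515), and Bcl3 fell by 1.13 (0.00267), while Ddit4 did not pass (0.94, 0.194). In Cd209a+ against C1qa+ cells 6 rose and 5 fell, with Saa3 (-5.09, adjusted p = 4.74e-05) and Il1rn (-3.94, 3.51e-08) lowest and Il1r2, the interleukin-1 decoy receptor, highest (3.73, 9.5e-06).

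Genes known to follow STAT6 split in both directions. Of 17, 16 were measured, 4 were higher and 5 lower at day 10 than at day 3 (median -0.11). Retnla was 13.4-fold higher (12.02 to 14.98) and Arg1 3.42-fold higher (3.34 to 3.500), while Chil3, a chitinase-like gene also high in monocytes, was 9.11-fold lower (8.70 to 9.55) and the chemokine gene Ccl17 7.90-fold lower (5.36 to 12.04). In the C1qa+ gate, where Il4ra was 1.61-fold higher at day 10, 1 of 14 measured genes was higher and 9 lower (median -0.91, against 0.04 for all genes, of which 19.2% were higher and 14.7% lower there). A link between Il4ra and these genes was not tested. In Cd209a+ cells 4 of 14 were higher and 4 lower (backgrounds 12.4% and 10.3%). In Ly6c2+ cells 3 of 10 were higher and 5 lower (14.5% and 19.0%). The none gate had 7 of 16 higher and 7 lower (median -0.38, against 0.10 for all genes). Between gates 5 rose and 1 fell in C1qa+ against Ly6c2+ cells, led by Retnla (7.75, edgeR adjusted p = 0.00398) and Mgl2 (4.84, adjusted p = 0.0106) and against them Chil3 (-4.72, adjusted p = 0.000384). In Cd209a+ against C1qa+ cells 6 rose and 7 fell, with Ccl17 highest (5.72, adjusted p = 0.00291) and Arg1 lowest (-7.50, adjusted p = 4.47e-08).

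**Figure D5:**
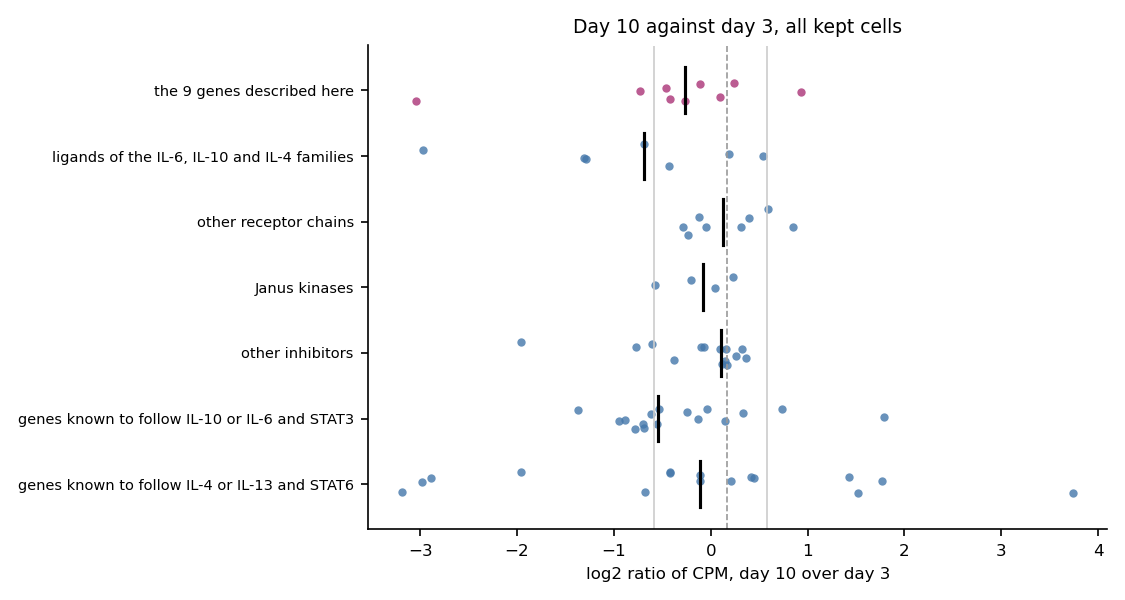
Log2 ratio of CPM, day 10 over day 3, in all kept cells (horizontal axis) for the 9 genes described here and the measured genes of 6 pathway lists (rows), with a black bar for the list median, a dashed line for the median of all genes (0.17) and grey lines at 1.5-fold. A library with under 3 UMIs was set to 3, and the largest ratio is that of Retnla (13.4-fold).

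The 13 gate sums share libraries, differ in depth and were weighted equally, with 22 to 655 cells each. As a description, the genes most like each member were taken by Pearson correlation of log2(CPM + 1) over these sums. For Il6 they were Cfap43 (r = 0.98), Zswim4 (0.96) and Zfp384 (0.95), and for Il10 Zfp131 (0.97), Pde1b (0.95) and Errfi1 (0.94). For Il4ra they were Myo7a (0.84), Prkcsh and Dusp3 (0.84 each), for Il10ra Ticam1 (0.91), A630001G21Rik (0.87) and Dtx3l (0.86), and for Il10rb Cndp2 (0.98), Cmklr1 (0.97) and C3ar1 (0.96). Havcr2 (0.94), Slain2 (0.93) and Pde1b (0.92) were most like Socs1, and Kdelr2 (0.94), Naa25 (0.92) and Sppl2a (0.88) most like Socs3. Stat3 was matched less closely, by Smim3 (0.84), AY036118 (0.84) and Map2k3 (0.82), as was Stat6, by Sec61a1 (0.86), Cnppd1 (0.85) and H2-Q4 (0.85). Among the 9 genes themselves, the closest pair was Il10 and Socs1 (0.88), then Il6 and Socs3 (0.80).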

How the data were processed

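Droplet single-cell RNA-seq counts from 3 libraries (day 3, day 6 and day 10, 2 mice pooled in each) were used as deposited: whole-number UMI counts per gene and barcode, made with Cell Ranger 3.0.2 against mm10 per the submitters' processing notes. The annotation release and the isolation gates are not given in the sources used here. The deposited counts were not normalized. Of 31053 identifiers, 30934 matched GENCODE vM21.

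Counts of kept cells were summed per library and gate; Scrublet calls (12, 6 and 5 cells) were kept. Days were compared by CPM ratio with exact Poisson and exact conditional binomial 95% intervals and no test, a gene being measured with at least 20 UMIs over both days and a library under 3 UMIs set to 3, except where counts of 1 to 3 are given with their plain ratio. Gates were compared by edgeR 4.0.16 (glmQLFit, TMM, filterByExpr) on the 13 sums of at least 20 cells, with library as a block because gates of a library come from the same mice; p-values were adjusted by Benjamini-Hochberg over 10643 genes and measure the spread over 3 libraries that differ in day, except for Ly6c2+C1qa+ cells, which have 1 sum. A simulation for C1qa+ against Ly6c2+ cells had 10643 genes, all given the same assumed spread and not that of the data. In it the fit recovered 2%, 16%, 80% and 90% of changes of 1.5-, 2-, 4- and 8-fold, which need not hold for the real contrast. DESeq2 1.42.0 was an alternative. The members and lists were chosen with earlier results of these data known. Named list genes were the 2 highest and the 2 lowest in the day 10 ratio and in the C1qa+ contrast, and like genes the 3 with the highest correlation; genes named outside these rules were chosen after their values were seen. A gene of the list of other STAT genes is not reported here, nor are that list's counts.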

Additional observations from a re-analysis of the deposited data

Results flagged for a closer look

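In 3 cases a gene's day difference ran in opposite directions in different gates, each past 1.5-fold; the difference between gates was not tested, since each day has 1 library. Il4ra at day 10 against day 3 had a log2 ratio of 0.69 in C1qa+ cells, -0.60 in Ly6c2+ cells and -0.61 in Cd209a+ cells, from at least 85 UMIs in each sum. Il10 in the same comparison had 0.85 in C1qa+ cells (127 against 8 UMIs, ratio 1.81 with a counting interval of 0.890 to 4.28, which includes no difference) and -1.91 in Ly6c2+ cells (3 against 50 UMIs). Il6 at day 6 against day 3 had -2.93 in C1qa+ cells and 1.36 in Ly6c2+ cells, and the C1qa+ value rests on 1 cell of day 3: with the highest cell of each library left out it was 0.12.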

How the results depend on the processing

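Depth limits the cytokines: gate sums of Il10, for example, hold 1 to 188 UMIs, and 1 library a day leaves day differences without a test. The Ly6c2+ gate of day 6 has 22 cells, and 19 or 18, too few to enter the fit, at gate thresholds of 3 or 5 UMIs. Il6 at day 6 against day 3 in C1qa+ cells reversed to 0.87 with a gate threshold of 1 UMI and to 0.12 without the highest cell of each library (main value -2.93), the 1 day ratio past 1.5-fold to change sign. Ratios under that fold could also change sign, such as Il10 at day 10 against day 3 in all kept cells (0.10, lowest -0.08). Of the 9 genes, 5 passed 1.5-fold between day 10 and day 3 with TMM or median-of-ratios factors, against 3 on CPM, and 1 passed at a fold of 2; at that fold 2 passed in C1qa+, 3 in Ly6c2+ and 1 in Cd209a+ cells, against 5, 5 and 2. In Cd209a+ cells 1 passed with a gate threshold of 1 UMI, with 2 UMIs per 10000 and by the mean over cells. Genes past the fold numbered 3787 (day 10 against day 3), 3994 (day 6 against day 3) and 1835 (day 10 against day 6) in all kept cells and 3225, 2797 and 1956 (day 10 against day 3) in C1qa+, Ly6c2+ and Cd209a+ cells; at a fold of 2 these were 1887, 1912, 666, 1349, 1033 and 677, and with at least 100 UMIs 2338, 2361, 876, 1875, 1251 and 637. With no minimum the counts were 5997 (day 10 against day 6), 8051 (C1qa+) and 6915 (Ly6c2+). When the pairing of gates by library was dropped (no library block), edgeR called 652 genes against 1407 for C1qa+ against Ly6c2+, 1284 against 2031 for Cd209a+ against Ly6c2+ and 3 against 5 for Ly6c2+C1qa+ against Ly6c2+, and of the 9 genes 3 against 5 (Cd209a+ against C1qa+) and 2 against 4 (Cd209a+ against Ly6c2+). With only the gates compared in the fit, 455 genes were called for C1qa+ against Ly6c2+. Leaving out each library in turn gave 303 (without day 10) to 1186 genes for C1qa+ against Ly6c2+, 615 without day 6, 2251 (without day 10) to 3291 for Cd209a+ against C1qa+, 1000 (without day 3) to 1484 for Cd209a+ against Ly6c2+ and 3 to 7 for Ly6c2+C1qa+ against Ly6c2+; of the 9 genes it gave 0 to 1, 3 to 4, 3 to 5 and 0. DESeq2, no filter on low counts and leaving out day 10 each called 1 of the 9 for C1qa+ against Ly6c2+ (Il10rb, Il4ra and Socs3). For Ly6c2+C1qa+ against Ly6c2+, DESeq2 called 17 genes, a gate threshold of 1 UMI 30 and no filter on low counts 117 with 1 of the 9 (Il10), and without day 3 this contrast could not be fitted. The cause of these changes was not tested.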
